A study of Mus musculus with 6 samples.

Results

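The pore-forming α1 subunits of voltage-gated calcium channels are encoded by 10 mouse genes, and all 10 were found by name among the 49568 genes measured in each sample. They were chosen by name, with earlier results of these data known. They were ordered by the current they carry: P/Q type (Cacna1a), N type (Cacna1b), R type (Cacna1e), L type (Cacna1s, Cacna1c, Cacna1d and Cacna1f) and T type (Cacna1g, Cacna1h and Cacna1i). RNA was sequenced from neurons of the preBötzinger Complex (preBötC), a brainstem site that generates the rhythm of inspiratory breathing, in mice at postnatal day 2. All samples came from Dbx1CreERT2; Rosa26tdTomato mice, in which a tamoxifen-inducible Cre recombinase driven from the Dbx1 locus switches on the fluorescent protein tdTomato in cells derived from Dbx1-expressing progenitors, and the pregnant dams received tamoxifen. The 3 Dbx1 samples each held 15 tdTomato-positive neurons, and the 3 non-Dbx1 samples each held 15 neuronal somata without the fluorescence, drawn 1 by 1 into micropipettes. Each sample came from a different animal, and both groups therefore shared the genotype, the tamoxifen and the age. Absence of fluorescence defined the non-Dbx1 group, so it could hold any other kind of neuron of the site and any Dbx1-derived neuron in which Cre had not acted.

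The α1 subunit forms the pore, the voltage sensor and the binding site of most drugs of a calcium channel, while auxiliary β and α2δ subunits set its trafficking and gating. P/Q-, N- and R-type channels open at strongly depolarised potentials and feed transmitter release at nerve terminals. L-type channels couple depolarisation to slow calcium entry and gene transcription, and T-type channels open near the resting potential and support rebound and burst firing.

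Expression was measured as RPKM, reads on a gene scaled by its exon length and by all reads on genes in the sample, a level per length. The exon lengths behind the deposited values are not on 1 footing for all genes, so a comparison between subunits that turns with another length is given with the merged exon length and the longest annotated transcript of GENCODE vM21 as well. Between 6464675 and 9432958 reads per sample fell on genes. Markers of neurons summed to 994 to 1708 RPKM across the Dbx1 samples, against 993 to 1380 RPKM across the non-Dbx1 samples. Microglial markers (3 genes) summed to 0.202 to 2.58 RPKM and 0 to 1.50 RPKM, with Itgam listed at 0 in all 6 samples, and astrocyte markers (4 genes) to 13.9 to 18.5 RPKM and 19.2 to 31.0 RPKM in Dbx1 and non-Dbx1 neurons. The astrocyte genes did not share a direction. Slc1a3 was higher in non-Dbx1 samples (4.64 to 11.5 RPKM against 4.18 to 4.54 RPKM). Gfap was higher in Dbx1 samples (0.271 to 3.96 RPKM against 0 to 0.126 RPKM), and Aqp4 and Aldh1l1 overlapped between the groups. RNA of other cells was measured in some samples: erythroid markers (5 genes) summed to 90.3 to 507 RPKM across the Dbx1 samples, against 733 to 14058 RPKM across the non-Dbx1 samples, and oligodendrocyte markers (3 genes) to 3.13 to 8.83 and 5.34 to 184 RPKM. Non-Dbx1 replicate 1 had the highest erythroid and oligodendrocyte sums, replicate 2 the highest endothelial sum (63.8 RPKM, nearly all from Cldn5, with Pecam1 at 0.0343 RPKM, against sums of 0.0104 to 1.64 in the other 5 samples) and replicate 3 the highest sum of motor neuron markers (54.4 RPKM, against 0.0511 to 9.43). Their part in the values below was not tested. In pooled neurons, fewer cells of a type and less RNA per cell cannot be told apart.

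All 10 pore subunits passed the filter of an RPKM above 0 in at least 3 samples, 8 were above 0 in all 6, and Cacna1f and Cacna1s were at or near the limit of detection. Cacna1b and Cacna1a had the highest means, followed by Cacna1d and Cacna1g. No subunit differed between Dbx1 and non-Dbx1 neurons by limma at a false discovery rate (FDR) under 0.1, and none had an unadjusted p under 0.05. By the same test 1 of the 17614 genes tested (0.00568%) had an FDR under 0.1 and 916 (5.2%) had p under 0.05. The 3 Dbx1 values and the 3 non-Dbx1 values did not overlap for 1 subunit of 10, the T-type gene Cacna1i, against 10.6% of all genes tested (5.24% with the higher values in non-Dbx1 and 5.35% in Dbx1 neurons). The log2 fold change (L2FC, mean log2(RPKM + 1) of the Dbx1 samples less that of the non-Dbx1 samples) was above 0 for 5 subunits and below 0 for 5, with a median of 0.0031, against 0.0089 over all genes tested. A pseudocount of 1 holds the L2FC of low genes close to 0.

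**Figure D1:**
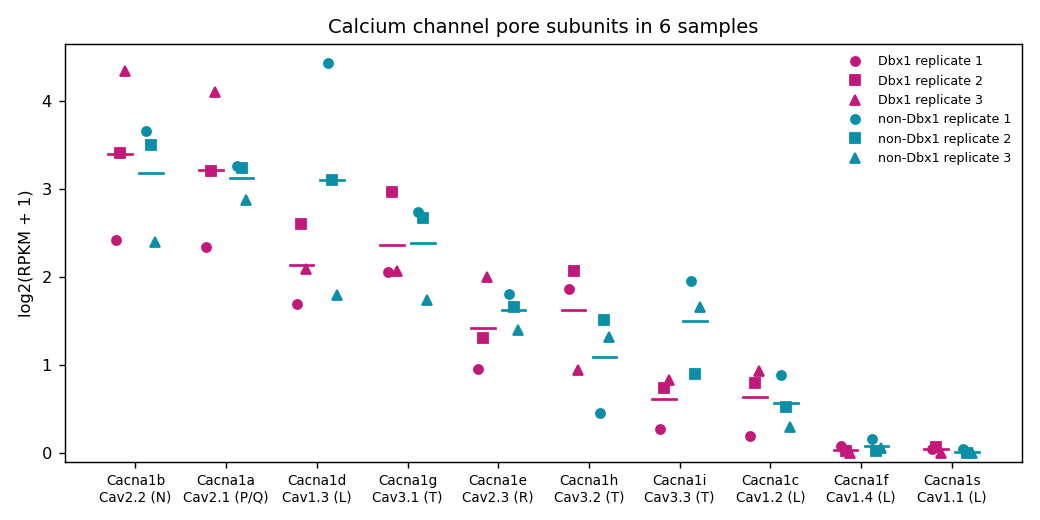
RPKM of the 10 calcium channel pore subunits in each sample, plotted as log2(RPKM + 1), from the highest to the lowest mean level. Colours mark Dbx1 and non-Dbx1 neurons, shapes the replicates and bars the group means. The groups overlap for every subunit except Cacna1i, whose 3 Dbx1 samples reach at most 0.784 RPKM and whose non-Dbx1 samples start at 0.860 RPKM.

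Cacna1a, which encodes the P/Q-type pore and lies on chromosome 8 (84388440 to 84640246, plus strand, GRCm38), measured 4.07, 8.27 and 16.2 RPKM in Dbx1 replicates 1 to 3 and 8.64, 8.46 and 6.36 RPKM in non-Dbx1 replicates 1 to 3. The non-Dbx1 samples lay within the range of the Dbx1 samples, whose highest and lowest values differed by 3.99-fold. Means were 9.53 ± 6.18 RPKM (SD, n = 3) in Dbx1 and 7.82 ± 1.27 RPKM (SD, n = 3) in non-Dbx1 neurons, with an L2FC of 0.09 (limma SE 0.49, 95% interval -1.03 to 1.21, FDR = 0.990). The gene rested on 539 to 1880 reads per sample.

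Cacna1b encodes the N-type pore, the channel blocked by ω-conotoxins of cone snails, and lies on chromosome 2 (24603887 to 24763152, minus strand). It measured 4.38, 9.67 and 19.4 RPKM across the Dbx1 samples, against 11.6, 10.4 and 4.28 RPKM across the non-Dbx1 samples. Dbx1 replicate 3 was the highest sample for both Cacna1a and Cacna1b, and the groups overlapped. Means were 11.1 ± 7.60 RPKM in Dbx1 and 8.76 ± 3.93 RPKM in non-Dbx1 neurons (SD, n = 3 each), with an L2FC of 0.21 (limma SE 0.57, 95% interval -1.09 to 1.51, FDR = 0.983). With Dbx1 replicate 3 left out the L2FC was -0.27 for Cacna1b and -0.35 for Cacna1a. With non-Dbx1 replicate 3 left out these values were -0.19 and -0.03, so neither sign was stable.

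The ratio of the N-type to the P/Q-type transcript varied less than either gene did. Cacna1b over Cacna1a was 1.07, 1.17 and 1.19 across the Dbx1 samples, against 1.35, 1.22 and 0.673 across the non-Dbx1 samples. Cacna1b was the higher of the pair in 5 of 6 samples, and non-Dbx1 replicate 3 was the exception. That sample had the highest sum of motor neuron markers (from Slc18a3, Isl1 and Chat, with Mnx1 at 0 RPKM). The part of these markers in the ratio was not tested. With the longest transcript the ratio in Dbx1 replicate 1 was also below 1 (0.956). The group means of the ratio were 1.15 and 1.08 (difference 0.06, exact two-sided permutation test, p = 1, n = 3 each).

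Cacna1e, the R-type pore, which carries the current left after toxins have blocked the other high-voltage types, lies on chromosome 1 (154390731 to 154884501, minus strand). It measured 0.937, 1.47 and 3.01 RPKM across the Dbx1 samples, against 2.51, 2.16 and 1.64 RPKM across the non-Dbx1 samples. Its level was the lowest of the P/Q, N and R genes in every sample, and Dbx1 replicate 3 was again the highest. Means were 1.80 ± 1.07 RPKM in Dbx1 and 2.105 ± 0.439 RPKM in non-Dbx1 neurons (SD, n = 3 each), with an L2FC of -0.20 (limma SE 0.55, 95% interval -1.47 to 1.06, FDR = 0.982) that was 0.03 without Dbx1 replicate 1. In Dbx1 replicate 3 these P/Q, N and R genes together held 80.9% of the summed RPKM of the 10 subunits, the highest share, against 42.7% to 58.5% in the other 5 samples.

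Cacna1d encodes an L-type pore that opens at less depolarised potentials than that of Cacna1c and is known from pacemaking cells, and it lies on chromosome 14 (30039939 to 30491455, minus strand). It measured 2.25, 5.07 and 3.28 RPKM across the Dbx1 samples, against 20.6, 7.59 and 2.47 RPKM across the non-Dbx1 samples. The value of 20.6 RPKM in non-Dbx1 replicate 1 was the highest of any subunit in any sample with the deposited length. With the merged length it was 15.1 RPKM, below Cacna1b in Dbx1 replicate 3 at 35.4 RPKM. The recovered reads of Cacna1d may each stand for 2 or more reads, as set out below, of which only 2 was examined. With its reads doubled the value was 30.1 RPKM with the merged length, still below Cacna1b. It was then 39.4 RPKM with the longest transcript, above Cacna1b in Dbx1 replicate 3 at 36.2 RPKM. Non-Dbx1 replicate 3 lay inside the Dbx1 range. Means were 3.53 ± 1.43 RPKM in Dbx1 and 10.2 ± 9.33 RPKM in non-Dbx1 neurons (SD, n = 3 each).

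The L2FC of Cacna1d was -0.98 (limma SE 0.69, 95% interval -2.55 to 0.59, FDR = 0.939, exact two-sided permutation p = 0.30). It was the difference farthest from 0 among the 10 subunits with a pseudocount of 1, but with a pseudocount of 0.1 that of Cacna1i was farther (-1.65 against -1.10). With non-Dbx1 replicate 1 left out the L2FC of Cacna1d was -0.31. With non-Dbx1 replicate 3 left out it was -1.63, with an unadjusted limma p under 0.05 and an FDR of 0.763. Non-Dbx1 replicate 1 was also the sample with the highest oligodendrocyte marker sum (Mbp 155 RPKM and Olig2 28.1 RPKM, but Mog 0.514 RPKM, below 3 of the other samples) and erythroid marker sum, whose part in this value was not tested. With 3 samples against 3, no difference in Cacna1d beyond the spread between replicates was detectable.

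Cacna1c encodes the L-type pore of heart and smooth muscle that is also widespread in brain, and lies on chromosome 6 (118587240 to 119196418, minus strand). It measured 0.140, 0.739 and 0.906 RPKM across the Dbx1 samples, against 0.853, 0.442 and 0.228 RPKM across the non-Dbx1 samples, on 45 to 255 reads. The groups overlapped, and the L2FC was 0.07 (limma SE 0.33, 95% interval -0.70 to 0.83, FDR = 0.990). Its sign turned without Dbx1 replicate 2, Dbx1 replicate 3 or non-Dbx1 replicate 3.

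Among L-type genes the transcript of Cacna1d was higher than that of Cacna1c in all 6 samples. Cacna1d over Cacna1c was 16.0, 6.87 and 3.62 across the Dbx1 samples, against 24.1, 17.2 and 10.8 across the non-Dbx1 samples (group difference by an exact two-sided permutation test, p = 0.20, BH-adjusted p = 0.45 over 9 ratios and shares). Dbx1 replicate 1 lay inside the non-Dbx1 range, so the groups overlapped. Cacna1d made up 78.4% to 95.4% of L-type RPKM. These ratios depend on the length used. They ran from 1.39 to 9.25 with the merged length and from 1.13 to 7.51 with the longest transcript. With the reads of Cacna1d doubled they ran from 2.78 to 18.5 and from 2.26 to 15.0. They were lowest in Dbx1 replicate 3, where 211 recovered reads of Cacna1d, possibly a fraction of the true reads, stood against 255 of Cacna1c.

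Cacna1f, the L-type pore of retinal photoreceptor terminals, lies on chromosome X (7607083 to 7635196, plus strand). It measured 0.0571, 0.0151 and 0 RPKM across the Dbx1 samples, against 0.114, 0.0133 and 0.0361 RPKM across the non-Dbx1 samples, which stood for 8, 2 and 0 reads and 13, 2 and 6 reads. In each group only part of the samples exceeded the level that 3 reads give, at most 0.0263 RPKM, and that floor covers counting error only.

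Cacna1s, the pore and voltage sensor of skeletal muscle, lies on chromosome 1 (136052750 to 136119822, plus strand). It measured 0.0354, 0.0498 and 0 RPKM across the Dbx1 samples, against 0.0290, 0 and 0 RPKM across the non-Dbx1 samples, or 3, 4 and 0 reads and 2, 0 and 0 reads. The level that 3 reads give, which a count of 0 allows, was at most 0.0435 RPKM. Reads were counted without strand, and 19.98% of the exon bases of Cacna1s overlap a gene on the opposite strand (Gm37759). Reads on those bases cannot be assigned to a strand, and whether any of its few reads lay there is not known. At these counts no difference was detectable for Cacna1f (FDR = 0.986) or Cacna1s (FDR = 0.990, both by limma).

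The T-type genes were Cacna1g, Cacna1h and Cacna1i. Cacna1g, which supports burst firing in thalamic relay neurons, lies on chromosome 11 (94408391 to 94474198, minus strand). It measured 3.17, 6.82 and 3.204 RPKM across the Dbx1 samples, against 5.71, 5.38 and 2.34 RPKM across the non-Dbx1 samples. Of the subunits with reads in all 6 samples it varied least, with 2.92-fold between its highest and lowest sample, and the groups overlapped. Means were 4.40 ± 2.097 RPKM in Dbx1 and 4.48 ± 1.86 RPKM in non-Dbx1 neurons (SD, n = 3 each). The L2FC was -0.02 (limma SE 0.54, 95% interval -1.25 to 1.21, FDR = 0.999), an interval that holds differences of more than 1 on the log2 scale either way.

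Cacna1h, the nickel-sensitive T-type pore known from sensory neurons, lies on chromosome 17 (25374285 to 25433783, minus strand). It measured 2.63, 3.19 and 0.930 RPKM across the Dbx1 samples, against 0.374, 1.85 and 1.49 RPKM across the non-Dbx1 samples. The highest values were in Dbx1 replicates 1 and 2, the lowest in non-Dbx1 replicate 1, and Dbx1 replicate 3 lay inside the non-Dbx1 range. Means were 2.25 ± 1.18 RPKM in Dbx1 and 1.24 ± 0.769 RPKM in non-Dbx1 neurons (SD, n = 3 each). The L2FC of 0.53 kept its sign with each sample left out, from 0.21 to 0.87, but was no larger than its error (limma SE 0.58, 95% interval -0.80 to 1.86, FDR = 0.958).

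Cacna1i, the T-type pore with the slowest kinetics, known from the thalamic reticular nucleus, lies on chromosome 15 (80287238 to 80398279, plus strand). It measured 0.208, 0.670 and 0.784 RPKM across the Dbx1 samples, against 2.89, 0.860 and 2.16 RPKM across the non-Dbx1 samples, on 20, 61 and 66 reads and 226, 89 and 247 reads. Every non-Dbx1 sample was above every Dbx1 sample, though non-Dbx1 replicate 2 stood close to the Dbx1 samples. Means were 0.554 ± 0.305 RPKM in Dbx1 and 1.97 ± 1.03 RPKM in non-Dbx1 neurons (SD, n = 3 each), or 3.56-fold higher in non-Dbx1 neurons.

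The difference in Cacna1i did not pass the test across all genes, with an L2FC of -0.89 (limma SE 0.48, 95% interval -1.995 to 0.22, unadjusted p = 0.101, FDR = 0.924). The exact two-sided permutation p was 0.10, the smallest that 3 samples against 3 allow. Non-overlapping groups with the higher values in non-Dbx1 neurons were found for 5.24% of all genes tested. With each sample left out in turn the L2FC ran from -1.20 to -0.66. Non-Dbx1 replicate 1, which had the highest oligodendrocyte and erythroid marker sums, also had the highest Cacna1i and the lowest Cacna1h. Without it the L2FC of Cacna1i was -0.66. Since Cacna1i is low, the value depends on the pseudocount and was -1.65 with a pseudocount of 0.1.

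The make-up of the T-type transcripts varied between samples. Cacna1g made up 52.7%, 63.8% and 65.1% of T-type RPKM across the Dbx1 samples, against 63.6%, 66.5% and 39.0% across the non-Dbx1 samples. Cacna1h made up 43.8%, 29.9% and 18.9% across the Dbx1 samples, against 4.17%, 22.8% and 24.9% across the non-Dbx1 samples. Cacna1i made up 3.46%, 6.27% and 15.9% across the Dbx1 samples, against 32.2%, 10.6% and 36.1% across the non-Dbx1 samples.

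Cacna1g was the leading T-type transcript in all 6 samples. Cacna1h came next in all Dbx1 samples and in non-Dbx1 replicate 2, and Cacna1i came next in non-Dbx1 replicates 1 and 3. In non-Dbx1 replicate 3 this order turned with the merged length (26.4% for Cacna1i and 27.0% for Cacna1h). The share of Cacna1i differed by -17.8 percentage points (Dbx1 less non-Dbx1, exact two-sided permutation test, p = 0.20, n = 3 each), and the share of Cacna1h by 13.6 points (exact p = 0.30), with a BH-adjusted p of 0.45 for each. Both shares overlapped between the groups, so the T-type make-up did not separate Dbx1 from non-Dbx1 neurons.

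**Figure D2:**
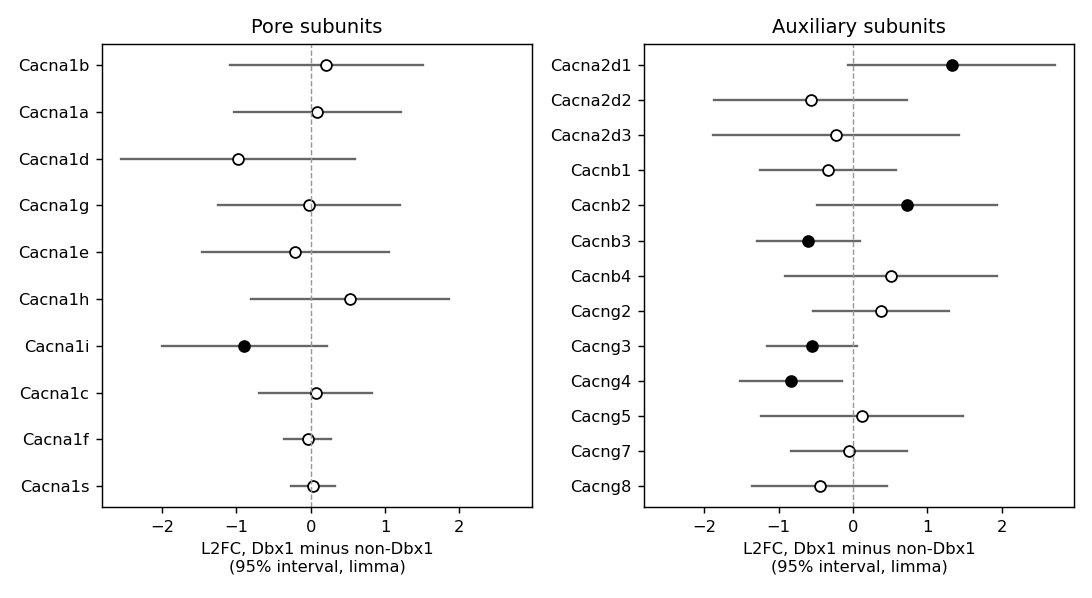
L2FC (Dbx1 less non-Dbx1, on log2(RPKM + 1)) of the 10 pore subunits (left) and the 13 tested auxiliary subunits (right), with the 95% limma interval as a line and filled points where the groups do not overlap. Every interval of a pore subunit includes 0, with Cacna1d at -0.98, Cacna1i at -0.89 and Cacna1h at 0.53. With a pseudocount of 0.1 Cacna1i (-1.65) is farther from 0 than Cacna1d (-1.10).

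Summed over the 10 subunits, calcium channel pore transcripts measured 17.9, 36.0 and 47.7 RPKM across the Dbx1 samples, against 53.3, 37.1 and 21.0 RPKM across the non-Dbx1 samples. Samples of 1 group differed by more than the groups did, with means of 33.9 ± 15.0 and 37.2 ± 16.2 RPKM (SD, n = 3 each, exact two-sided permutation test, p = 0.70). The difference of -3.30 RPKM became 4.69 RPKM without Dbx1 replicate 1 and 4.79 RPKM without non-Dbx1 replicate 1. No direction can be given for the total.

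Shares of the summed RPKM within a sample do not depend on how samples were scaled to each other. The N type held 24.5%, 26.9% and 40.6% of the summed RPKM across the Dbx1 samples, against 21.8%, 27.9% and 20.4% across the non-Dbx1 samples. The P/Q type held 22.8%, 23.0% and 34.0% against 16.2%, 22.8% and 30.3%. The R type held between 4.08% and 7.81% in all samples.

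The shares of the N type and of the P/Q type were both highest in Dbx1 replicate 3, and each overlapped between the groups. The L type held 13.9%, 16.3% and 8.78% across the Dbx1 samples, against 40.4%, 21.7% and 13.0% across the non-Dbx1 samples. The T type held 33.6%, 29.7% and 10.3% across the Dbx1 samples, against 16.8%, 21.8% and 28.5% across the non-Dbx1 samples. The leading type was T in Dbx1 replicates 1 and 2, N in Dbx1 replicate 3 and non-Dbx1 replicate 2, L in non-Dbx1 replicate 1 and P/Q in non-Dbx1 replicate 3. With the merged length N led in non-Dbx1 replicate 1 (30.4%, against 24.2% for L) and T in non-Dbx1 replicate 3 (31.6%, against 29.2% for P/Q). With that length and the reads of Cacna1d doubled, L kept the lead in non-Dbx1 replicate 1 (37.6%, against 25.0% for N). L also led in that sample with the longest transcript (26.1%, against 25.1% for N).

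The groups overlapped for the share of every type. Differences (Dbx1 less non-Dbx1) were 3.51 percentage points for P/Q, 7.29 for N, -0.907 for R, -12.0 for L and 2.16 for T, with exact two-sided permutation p of 0.60, 0.30, 0.50, 0.30 and 0.80 (n = 3 each). BH-adjusted values over the 5 types were at least 0.75. The L-type difference was -4.34 points without non-Dbx1 replicate 1. It also depended on the length and on the recovered reads of Cacna1d. Means were 13.0% in Dbx1 and 25.0% in non-Dbx1 neurons with the deposited length. With the recovered reads as they stand the L-type difference was -7.07 points with the merged length (means of 7.26% and 14.3%). It was -7.37 points with the longest transcript. With the reads of Cacna1d doubled these differences were -11.4 points (means of 11.7% and 23.1%) and -11.7 points. The sign of the T-type difference turned when Dbx1 replicate 1, Dbx1 replicate 2 or non-Dbx1 replicate 1 was left out, and that of the P/Q type when Dbx1 replicate 3 was.

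**Figure D3:**
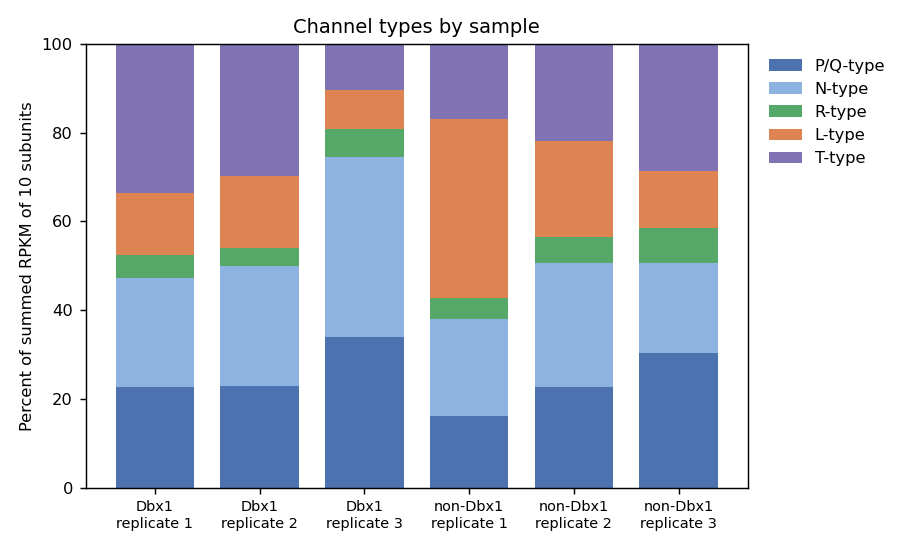
Share of each calcium channel type in the summed RPKM of the 10 pore subunits, in percent, as 1 stacked bar per sample. L-type transcripts hold 40.4% in non-Dbx1 replicate 1 and 8.78% to 21.7% elsewhere, and N-type transcripts hold 40.6% in Dbx1 replicate 3.

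Over all 6 samples the order of mean levels was Cacna1b (9.95 RPKM), Cacna1a (8.67), Cacna1d (6.87), Cacna1g (4.44), Cacna1e (1.95), Cacna1h (1.74), Cacna1i (1.26), Cacna1c (0.551), Cacna1f (0.0393) and Cacna1s (0.0190). Cacna1b had a higher mean than 74.8% of the genes tested and Cacna1c than 16.5%. Of the 9 pairs of neighbours in this order, Cacna1g stood above Cacna1e and Cacna1c above Cacna1f in all 6 samples (exact two-sided sign-change test, p = 0.03125, the smallest that 6 samples allow, BH-adjusted p = 0.141 over the 9 pairs). The other 7 pairs kept their order in 4 or 5 of 6 samples, with exact p of 0.1875 to 0.656. No difference between these neighbours beyond their spread was detectable. The pairs are neighbours in the order of these same means, so the test cannot show that their levels were equal.

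The order also depended on the exon length by which reads were divided. For 9 subunits the length behind the deposited values was 1.23 to 2.00 times the merged exon length of GENCODE vM21, and for Cacna1d it was 0.732 times that length. Reads were recovered as the least whole numbers from which the RPKM can be built, so the reads and the length of Cacna1d may both be a multiple of those recovered. With merged exon length the means were 18.2 RPKM for Cacna1b, 12.6 for Cacna1a, 8.87 for Cacna1g and 5.03 for Cacna1d. If the recovered reads of Cacna1d stand for 2 reads each, its mean was 10.1 RPKM with that length, and it kept its place above Cacna1g. Larger multiples were not examined and would raise Cacna1d further.

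Cacna1b and Cacna1a led and Cacna1f and Cacna1s came last with the deposited, the merged and the longest-transcript lengths. This held with the reads of Cacna1d as recovered and as doubled. With the longest transcript Cacna1g also passed Cacna1d (10.7 against 6.57 RPKM), but not with the reads of Cacna1d doubled (13.1 RPKM). Cacna1h passed Cacna1e with the merged length (3.18 against 2.73 RPKM), and Cacna1c passed Cacna1i with the longest transcript (1.69 against 1.56 RPKM). Another length multiplies all 6 values of a gene by 1 factor, so it leaves their order and their ratios as they are and changes the L2FC only through the pseudocount. Opposite-strand genes overlap 4.67% of the exon bases of Cacna1d, 3.81% of those of Cacna1a and 1.62% of those of Cacna1h, and reads there cannot be assigned to a strand.

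**Figure D4:**
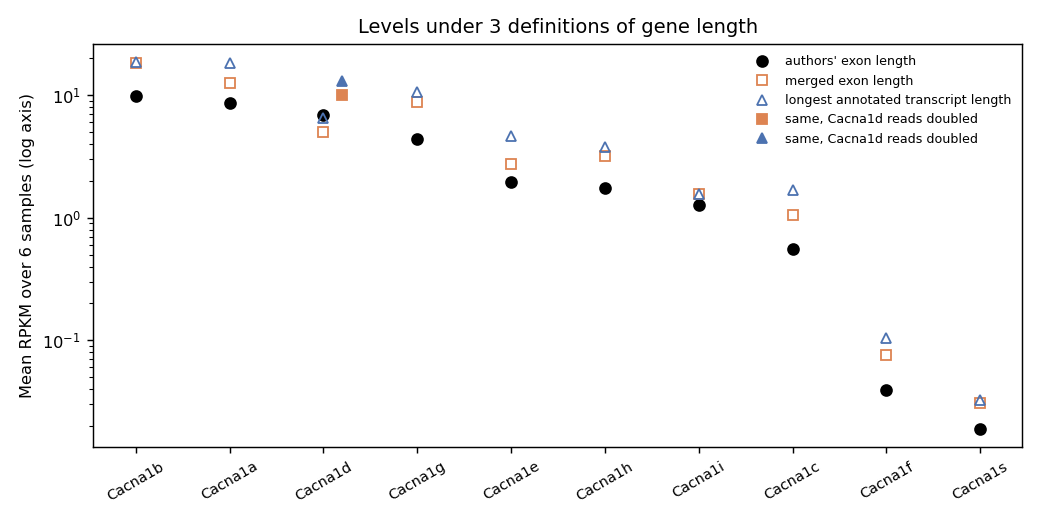
Mean RPKM over 6 samples of each pore subunit with the exon length behind the deposited values, the merged exon length and the longest annotated transcript, on a log axis. Cacna1g lies below Cacna1d with the deposited length (4.44 against 6.87 RPKM). It lies above Cacna1d with merged exons (8.87 against 5.03 RPKM) and the longest transcript (10.7 against 6.57 RPKM), unless the reads of Cacna1d are doubled.

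The genes that work with the pore were examined in 3 lists: auxiliary subunits (16 genes, 13 tested), proteins of the release site and channel regulators (20 genes, all tested) and calcium-activated potassium channels (7 genes, 6 tested). None of these 39 tested genes had an FDR under 0.1 by limma (lowest 0.912), and 1 had an unadjusted p under 0.05. The groups did not overlap for 6 of them (15.4%, against 10.6% of all genes tested), of which 5 were auxiliary subunits and 1 a release-site gene. The median L2FC was -0.23 for the auxiliary subunits, 0.10 for the release-site genes and 0.37 for the calcium-activated potassium channels, against 0.0089 for all genes tested.

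Cacnb3, a cytoplasmic β subunit that carries the pore to the membrane and the highest β gene, measured 68.4, 52.3 and 30.8 RPKM across the Dbx1 samples, against 73.8, 72.3 and 74.1 RPKM across the non-Dbx1 samples. Cacnb2, another β subunit, measured 2.45, 3.36 and 3.76 RPKM across the Dbx1 samples, against 1.04, 1.56 and 2.05 RPKM across the non-Dbx1 samples. The groups did not overlap for either gene, and the directions were opposite, with an L2FC of -0.60 for Cacnb3 (limma SE 0.30, FDR = 0.913) and 0.72 for Cacnb2 (limma SE 0.53, FDR = 0.940).

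Cacna2d1, an α2δ subunit and a binding site of gabapentin, measured 3.74, 13.6 and 5.72 RPKM across the Dbx1 samples, against 1.96, 3.73 and 1.13 RPKM across the non-Dbx1 samples. All Dbx1 values were higher, by little for replicate 1, with an L2FC of 1.32 (limma SE 0.61, FDR = 0.912). Cacna2d3, the α2δ gene with the highest mean, measured 58.4, 10.6 and 113.9 RPKM across the Dbx1 samples, against 59.1, 56.4 and 36.3 RPKM across the non-Dbx1 samples. Dbx1 neurons thus held both its lowest and its highest value.

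Cacng3 and Cacng4 are named as calcium channel γ subunits and are known chiefly as auxiliary subunits of AMPA receptors. Cacng4, the highest γ gene, measured 18.1, 26.6 and 27.2 RPKM across the Dbx1 samples, against 49.9, 51.2 and 30.5 RPKM across the non-Dbx1 samples. Its L2FC was -0.83 (limma SE 0.30, unadjusted p = 0.0229, FDR = 0.912). Cacng3 measured 20.7, 24.9 and 23.1 RPKM across the Dbx1 samples, against 40.9, 37.0 and 26.0 RPKM across the non-Dbx1 samples (L2FC -0.56, limma SE 0.26, FDR = 0.912). Every non-Dbx1 value was above every Dbx1 value for both genes, and neither passed the FDR threshold.

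Rims1, a scaffold of the release site that tethers P/Q- and N-type channels near vesicles, measured 12.8, 10.01 and 19.9 RPKM across the Dbx1 samples, against 9.39, 6.52 and 8.05 RPKM across the non-Dbx1 samples. The groups did not overlap, and the L2FC was 0.72 (limma SE 0.36, FDR = 0.913). Calm2, which encodes calmodulin, the calcium sensor that binds the tail of the pore, was the highest gene of that list and measured 491 to 819 RPKM across the Dbx1 samples, against 522 to 672 RPKM across the non-Dbx1 samples. Kcnn2, a small-conductance potassium channel opened by calcium, had the highest mean of the calcium-activated potassium channels with the deposited length (4.10 RPKM, against 3.80 RPKM for Kcnma1). By the median over the 6 samples Kcnma1 was higher (3.93 against 3.37 RPKM). Kcnn2 measured 2.08, 9.47 and 3.93 RPKM across the Dbx1 samples, against 3.28, 2.37 and 3.46 RPKM across the non-Dbx1 samples. The groups overlapped for Calm2 and Kcnn2, as they did for 33 of the 39 tested genes that work with the pore.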

How the data were processed

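The authors pooled 15 neurons per sample, made complementary DNA, aligned reads to mm10 with TopHat2, processed them with SAMtools and counted them per gene, without strand, with HTSeq. The authors deposited 1 RPKM value per gene and sample and tested counts with DESeq2. Counts were not used here, and the annotation release is not given in the sources used here. Reads were recovered from the steps between RPKM values: all 27067 genes above 0 gave whole reads (tolerance 1e-05, 100%). They gave depths and floors of 3 reads. Exon lengths behind RPKM counted overlapping exon variants more than once in many genes.

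The groups, from the labels, were compared with limma 3.58.1 (lmFit, eBayes with trend, two-sided, Benjamini-Hochberg) in R 4.3.3 on log2(RPKM + 1), over the 17614 genes above 0 in at least 3 samples. An FDR under 0.1 was called. The fit was tested on simulated data. Exact permutation tests (Python 3.11.15) were two-sided. Positions came from GENCODE vM21 on GRCm38, which matched 47287 of 49568 names (95.4%).

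Named were all 10 pore subunits and, of the partner lists, the gene with the highest mean of each list and each auxiliary family and every gene with non-overlapping groups. A marker gene of the oligodendrocyte list is not reported here and was left out of its sum. Tspoap1 was matched by its older symbol Bzrap1. The 3 genes most like the highest subunit were found by root mean square difference. Members and lists were chosen with earlier results of these data known. Alternatives were a pseudocount of 0.1, other filters (above 0 in 1 sample, at least 1 RPKM in 3), size factors, no trend, a replicate block, each sample left out, voom on recovered reads, read shares and other exon lengths. The merged exon length and doubled Cacna1d reads were chosen after seeing the data.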

Additional observations from a re-analysis of the deposited data

How the results depend on the processing

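No pore subunit and none of the genes that work with the pore passed an FDR under 0.1 under any of the 13 alternatives, where voom on recovered reads left 8 subunits to test and the filter of at least 1 RPKM left 6. The lowest FDR of a subunit was 0.763, for Cacna1d without non-Dbx1 replicate 3. An unadjusted limma p under 0.05 was reached for Cacna1d in that setting and for Cacna1i without non-Dbx1 replicate 2. Cacna1d and Cacna1h kept their direction in all 13, Cacna1i in the 12, Cacna1f in the 11 and Cacna1s in the 8 in which they were tested. With 1 sample left out the L2FC ran from -0.35 to 0.53 for Cacna1a, from -0.27 to 0.69 for Cacna1b, from -0.50 to 0.028 for Cacna1e, from -0.078 to 0.29 for Cacna1c and from -0.34 to 0.16 for Cacna1g, and with voom that of Cacna1g was 0.033. The difference in summed RPKM ran from -11.4 to 4.79, in the T-type share from -2.39 to 9.27 percentage points, in the P/Q-type share from -0.203 to 7.10, in the N-type share from 2.32 to 10.4, in the R-type share from -1.61 to -0.0606 and in the L-type share from -18.1 to -4.34. The L-type difference was -7.19 as a share of recovered reads, -7.37 with the longest transcript and -7.07 with the merged exon length. With doubled reads of Cacna1d it was -11.7 with the longest transcript and -11.4 with the merged exon length. With merged exon length Cacna1g stayed above Cacna1e in all 6 samples, but the 2 genes were no longer neighbours. In that order 1 pair of neighbouring subunits, in place of 2, kept its order in all 6 samples. With doubled reads of Cacna1d and that length 2 pairs did, and 2 to 3 did with 1 sample left out. The causes were not tested.

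No pairing by replicate number was seen in the values. The correlation of the deviations of same-numbered samples lay between -0.107 and 0.0248, against -0.0824 to 0.133 for differently numbered samples. With 3 samples per group this does not show whether samples were prepared together. With the number as a block 0 subunits and 0 of the genes that work with the pore were called. Depth limits Cacna1f and Cacna1s, which had at most 13 and 4 reads, and the 3 samples per group limit the rest, with intervals of the L2FC up to 1.57 on either side for Cacna1d.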

Other observations

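The genes whose values followed those of Cacna1b most closely over the 6 samples, by the root mean square difference of log2(RPKM + 1) after centring, among 13909 genes with a mean of at least 1 RPKM, were Rab11fip3 (0.134), Sgpl1 (0.135) and Rtl1 (0.157). This is a description over 6 samples and carries no test. Of the T-type transcripts, Cacna1i had the lowest and Cacna1h the middle mean over the 6 samples. Cacna1i over Cacna1h was 0.0790, 0.210 and 0.843 across the Dbx1 samples, against 7.72, 0.465 and 1.45 across the non-Dbx1 samples. The groups overlapped (exact two-sided permutation test, p = 0.20, BH-adjusted p = 0.45).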
